A study of Mus musculus with 3 samples.

Results

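Genes that mark GABAergic interneurons and their precursors were followed in neurosphere cultures in which CBP or p300 had been ablated. The set holds 9 genes, picked by symbol among the 30559 genes of the count matrices: the homeobox genes Dlx1, Dlx2 and Dlx5, the long noncoding RNA Dlx6os1, the zinc-finger genes Sp8 and Sp9, the glutamate decarboxylase genes Gad1 and Gad2, and Adarb2. All 9 were found. Their RNA was concentrated, to different degrees, in a small class of neuron-like nuclei. In the whole CBP-ablated library the level of Dlx6os1 was higher than in control and that of Gad1 was lower, while inside neuron-like nuclei drawn by clusters the levels of both had intervals that overlapped control. Whether the neuron-like nuclei had lost CBP was not tested. With the class drawn by a marker score instead, the CBP-ablated level of Dlx6os1 was above control inside it as well. Of the 571 nuclei so drawn in the 3 libraries together, 60.8% were in the neuron-like cluster. The score widened the class more in control than in the CBP-ablated library. The part of the other nuclei in that result was not tested.

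Neural progenitors from the subventricular zone (SVZ) of newborn mice on a C57BL/6 background were grown as neurospheres, differentiated in culture and profiled by single-nucleus RNA sequencing. CBP-ablated cultures came from CBPf/f mice, with a floxed Crebbp gene, and p300-ablated cultures from p300f/f mice, with a floxed Ep300 gene, and both had received a lentivirus that carries Cre recombinase with mCherry. Control cultures had received a lentivirus with RFP and no Cre, and the mouse line they came from is not given in the sources used here. The labels name tamoxifen for all 3 samples, although the methods describe viral Cre. Each of the 3 conditions was 1 library, made from a pool of about 15 cultures at day 15, and its nuclei were sorted by RFP or mCherry, so every nucleus profiled was meant to come from an infected cell. With 1 library per condition there was no replicate and no test, nuclei are not replicates, and both ablated libraries were set against the same control library. Intervals in the text are 95% intervals that cover counting error only. Those of levels and ratios take each UMI as a separate draw and leave out the spread between nuclei, so they can be too narrow.

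CBP and p300 are histone acetyltransferases and coactivators that many transcription factors recruit to enhancers. DLX proteins are homeodomain transcription factors of the ventral forebrain, where they direct precursors to the GABAergic fate and help switch on the GAD genes; the SVZ keeps making DLX-positive neuroblasts after birth, which migrate to the olfactory bulb and become interneurons there. Sp8 and Sp9 are zinc-finger factors of the same lineages, Gad1 and Gad2 encode the enzymes GAD67 and GAD65 that make GABA from glutamate, and Adarb2 encodes ADAR3, an RNA-binding relative of the RNA-editing enzymes that marks cortical interneurons born in the caudal ganglionic eminence.

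Positions are those of GENCODE M21 on GRCm38, and some of the genes lie side by side. Dlx1 (chr2:71528113-71533981, plus strand) and Dlx2 (chr2:71543408-71546754, minus strand) are neighbours 9426 bases apart. Dlx5 (chr6:6877805-6882085, minus strand) lies 6212 bases from Dlx6os1 (chr6:6820189-6871592, minus strand), and Dlx6os1 holds Dlx6 on the opposite strand. Gad2 (chr2:22622205-22693874), Gad1 (chr2:70553072-70602014) and Sp9 (chr2:73271925-73284706) are also on chromosome 2, Sp8 (chr12:118846329-118852576) is on chromosome 12, and Adarb2 (chr13:8202866-8768747) spans 565.9 kb of chromosome 13, all on the plus strand. Dlx1as, Gad1os and Cir1 overlap Dlx1, Gad1 and Sp9 on the opposite strand. Whether the counting used strand is not given in the sources used here. It is therefore not known whether reads of such partners, and of Dlx6 and Dlx6os1, were kept apart.

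Promoter sequence is shown for the 4 genes on which the results turn, since Dlx6os1, Gad1, Gad2 and Adarb2 had the most counts. Windows of 250 bases before to 50 bases after the RefSeq start (GRCm38.p6) were found for 8 of the 9 genes. Capitals mark TAATTA, a core that homeodomain proteins such as DLX bind, and GGGCGG or its reverse complement CCGCCC, the GC box bound by SP proteins; TAATTA reads the same on both strands, and the motifs have no letter in common and so cannot overlap. The windows are chr6:6869484-6869783 (minus strand), chr2:70561879-70562178, chr2:22622077-22622376 and chr13:8202616-8202915 (plus strand), in that order.
Dlx6os1: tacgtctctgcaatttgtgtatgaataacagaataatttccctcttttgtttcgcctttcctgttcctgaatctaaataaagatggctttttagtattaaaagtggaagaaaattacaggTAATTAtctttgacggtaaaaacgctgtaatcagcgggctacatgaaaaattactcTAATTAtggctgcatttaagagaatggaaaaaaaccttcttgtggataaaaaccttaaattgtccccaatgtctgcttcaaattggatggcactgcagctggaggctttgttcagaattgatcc
Gad1: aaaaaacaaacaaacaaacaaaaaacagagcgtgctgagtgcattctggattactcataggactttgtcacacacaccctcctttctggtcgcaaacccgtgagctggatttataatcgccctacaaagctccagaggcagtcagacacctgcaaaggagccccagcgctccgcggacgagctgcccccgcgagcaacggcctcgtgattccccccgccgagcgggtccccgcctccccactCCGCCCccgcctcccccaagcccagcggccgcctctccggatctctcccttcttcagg
Gad2: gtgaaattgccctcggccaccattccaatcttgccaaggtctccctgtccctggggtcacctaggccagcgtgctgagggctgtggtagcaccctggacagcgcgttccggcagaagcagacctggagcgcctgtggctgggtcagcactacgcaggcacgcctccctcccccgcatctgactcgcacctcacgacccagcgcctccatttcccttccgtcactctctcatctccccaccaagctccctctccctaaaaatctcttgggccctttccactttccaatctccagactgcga
Adarb2: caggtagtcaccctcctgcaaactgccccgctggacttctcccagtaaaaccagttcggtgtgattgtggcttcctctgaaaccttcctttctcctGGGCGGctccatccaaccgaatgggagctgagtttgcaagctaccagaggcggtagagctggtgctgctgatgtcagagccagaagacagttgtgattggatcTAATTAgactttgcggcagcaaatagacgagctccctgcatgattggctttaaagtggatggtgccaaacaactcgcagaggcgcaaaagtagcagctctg
The Dlx6os1 window held 2 TAATTA and no GC box, that of Gad1 held 1 GC box, that of Adarb2 held 1 of each, and that of Gad2 held neither. TAATTA was also in the other Dlx6os1 window and in 1 of the 3 Sp8 windows, and the GC box was also in the windows of Dlx1, Dlx2 and Sp9 and in 1 of Sp8. Among all 32851 promoter windows, 5.29% held TAATTA and 35.7% held the GC box. These matches are descriptions of the letters and carry no measurement of binding.

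There were 4884 nuclei from control, 3017 from CBP-ablated and 4648 from p300-ablated cultures, and libraries of 12748336 to 18876682 unique molecular identifiers (UMIs) each and a median of 3219 to 4016 UMIs per nucleus. Levels are given as counts per 1000000 UMIs of the nuclei named (CPM). Between 1 and 7 cell barcodes were shared by each pair of libraries, and 1 neuron-like nucleus carried such a barcode. The UMIs of Crebbp and Ep300 were summed over the whole gene, so a deleted exon cannot be read from them: Crebbp stood at 335, 370 and 365 CPM in the control, CBP-ablated and p300-ablated libraries and Ep300 at 114, 136 and 115 CPM, which does not check the labels. Nuclei were clustered without the 9 genes, and 10 of 13 clusters were named from fixed marker lists. An astrocyte-like cluster of 1278 nuclei, 26.2% of the control nuclei, was found in the control library alone, and its presence touches each ratio over all nuclei below.

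The neuron-like cluster held 359 of the 12549 nuclei and passed 7 of 9 neuron markers, with Celf4, an RNA-binding protein of neurons, at 2261 to 3219 CPM and Rbfox3, the NeuN antigen, at 245 to 470.3 CPM. It made up 101 control nuclei (2.07%, 1.69 to 2.51), 171 CBP-ablated nuclei (5.67%, 4.87 to 6.55) and 87 p300-ablated nuclei (1.87%, 1.5 to 2.30). Without the astrocyte-like nuclei the control share was 2.80% (2.29 to 3.39). The CBP-ablated share was thus above control by either denominator, and the interval of the p300-ablated share overlapped that of control with all nuclei and met its lower bound without the astrocyte-like nuclei. Markers of other cells were present in neuron-like nuclei: the 8 NPC/OPC markers summed to 5945, 7618 and 7304 CPM in the 3 libraries, against 28980 to 31340 in their own class, and the 7 astrocyte markers to 3720, 2720 and 3121 CPM, against 24530 in the astrocyte-like cluster. The 5 oligodendrocyte markers summed to 61.0 to 207 CPM and the microglia markers to 6.10 to 23.2 CPM. Nuclei called doublets were 9.90%, 2.34% and 10.3% of the class, and the part of these values in the results was not tested. The study proposes that its own neuron cluster may hold cells that were neurons before they lost CBP or p300. Another possibility it gives is that Cre recombination had failed in them. Whether nuclei of the class had lost the floxed gene was not tested here.

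Where the RNA of the set lay differed by gene and by library. Of all UMIs of Dlx6os1, an antisense transcript of the Dlx5 and Dlx6 locus, 80.0% were in neuron-like nuclei in control, 92.7% after CBP ablation and 88.2% after p300 ablation. Gad1 had 20.5%, 75.0% and 26.0% of its UMIs there, Gad2 had 37.2%, 63.0% and 26.4%, and Adarb2 had 25.6%, 59.1% and 17.6%. Both in control and after p300 ablation, Dlx1, Dlx2, Dlx5, Dlx6os1 and Sp9 each had a larger share there than Gad1, Gad2, Adarb2 or Sp8, whereas in the CBP-ablated library Gad1 stood above Dlx5 (72.0%). Over the 8 genes other than Adarb2, the share was 41.0% (37.6 to 44.5) in control, 79.5% (76.6 to 82.2) with CBP ablated and 41.1% (37.9 to 44.4) with p300 ablated. The class held 2.86% of all nuclei, so each gene had a larger part of its UMIs there than the class had of nuclei. Adarb2 is also among the genes by which the study named its neurons from these libraries, so its place in the class is not independent evidence of the name.

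Free RNA was read from the 311 microglia-like nuclei, which should lack all these transcripts and had a median of 1151 UMIs against 2922 to 3709 in neuron-like nuclei. In their 529546 UMIs, Dlx1, Dlx5, Gad1, Sp8 and Sp9 had 0 UMIs, Dlx2 and Dlx6os1 had 1 and Gad2 had 2, and a count of 0 allows up to 5.67 CPM. Adarb2 had 78 UMIs there, 147 CPM. After each nucleus was thinned to 1500 UMIs, which left out 16 neuron-like nuclei and kept 343, Dlx6os1 had a UMI in 39.7% of neuron-like nuclei, Gad1 in 28.9%, Gad2 in 26.0%, Sp9 in 13.7%, Dlx1 in 8.16%, Dlx5 in 6.41%, Dlx2 in 3.79% and Sp8 in 1.17%. None of these 8 genes had a UMI in the 116 microglia-like nuclei kept, which allows a share of up to 3.13% for each by the exact binomial bound, so the shares of Sp8 and Dlx2 were at or near what that number of nuclei can resolve. Adarb2 had one in 95.9% of thinned neuron-like nuclei and in 9.48% of thinned microglia-like nuclei.

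**Figure D1:**
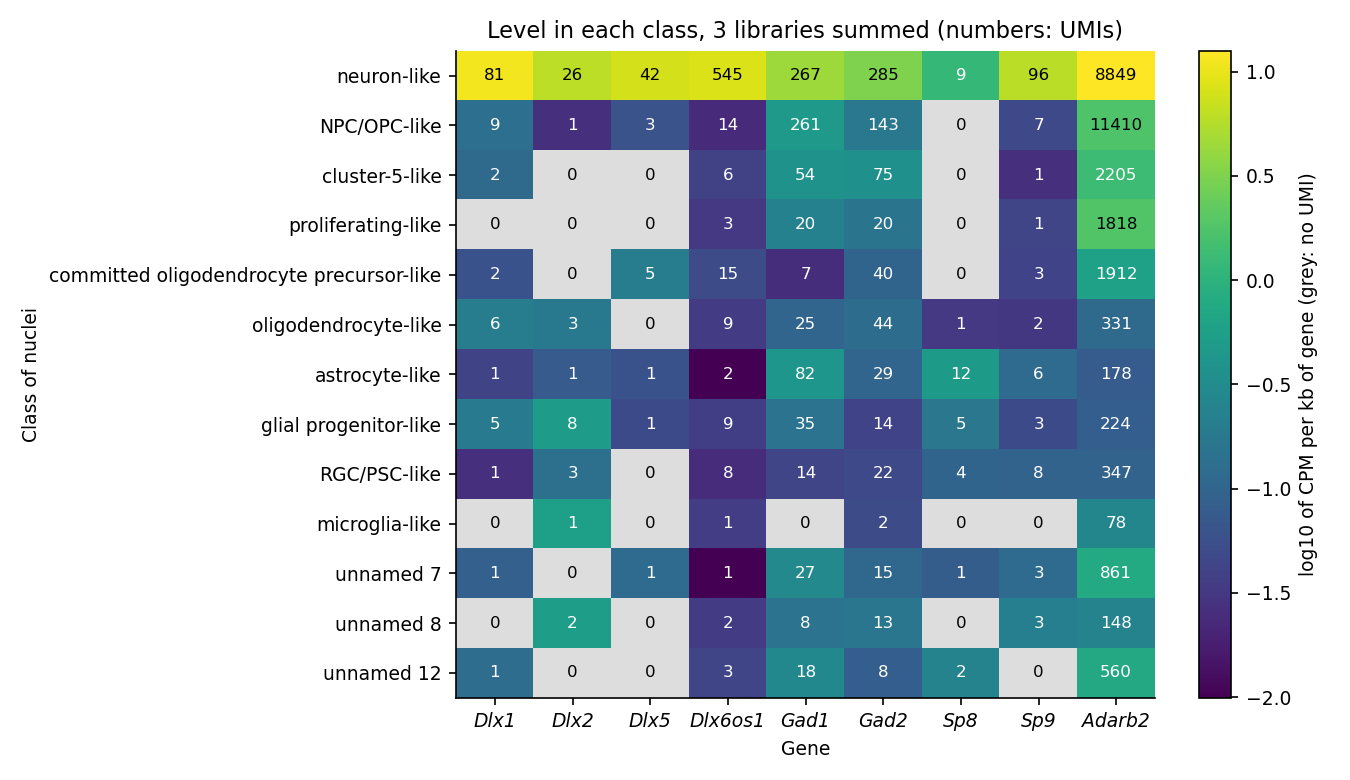
Heat map of the 9 genes (columns) in the classes of nuclei (rows), with the 3 libraries summed: colour is log10 of the level in CPM per kb of gene, grey is no UMI, and the numbers are UMIs. The neuron-like class has the highest level of each gene, with 545 UMIs of Dlx6os1 and 8849 of Adarb2, and the microglia-like class shows the level of free RNA.

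Among the DLX genes, Dlx6os1 was the most abundant in UMIs. In neuron-like nuclei it had 132 control, 278 CBP-ablated and 135 p300-ablated UMIs, which gave levels of 428, 460.5 and 412 CPM. It was detected in 56.4%, 55.6% and 57.5% of the nuclei, so the 3 libraries stood close together on both measures. The log2 ratio to control of its level in these nuclei was 0.11 (−0.20 to 0.42) for the CBP-ablated and −0.06 (−0.41 to 0.30) for the p300-ablated library. Over all nuclei its UMIs were 165, 300 and 153 and its level 10.1, 23.5 and 8.11 CPM, with log2 ratios of 1.22 (0.94 to 1.5) and −0.32 (−0.65 to 0.01). The higher CBP-ablated level over all nuclei came with a larger share of neuron-like nuclei, while the level inside them had a ratio interval that held 0. Without the astrocyte-like nuclei the ratios were 0.84 (0.56 to 1.12) and −0.70 (−1.03 to −0.37), so the p300-ablated interval then left out 0. Outside neuron-like nuclei, with 33, 22 and 18 UMIs, they were −0.19 (−1.04 to 0.63) and −1.09 (−2.0 to −0.22). Of the 33 control UMIs, 13 lay in 6 committed oligodendrocyte precursor-like nuclei. The share of outside nuclei with a UMI was 0.52% (0.34 to 0.77) in control and 0.37% (0.22 to 0.60) in the p300-ablated library. Those intervals overlapped.

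Dlx1, which acts early in the GABAergic programme together with its neighbour Dlx2, had 13, 46 and 22 UMIs in neuron-like nuclei, or levels of 42.2, 76.2 and 67.1 CPM. Both ablated libraries were above control, with intervals that held 0: the log2 ratios were 0.85 (−0.06 to 1.87) and 0.67 (−0.38 to 1.78). Over all nuclei Dlx1 had 21, 56 and 32 UMIs, and the ratio of the CBP-ablated library was 1.77 (1.02 to 2.57), the highest of the set, against 0.40 (−0.44 to 1.26) for the p300-ablated library. Dlx2 was sparser, with 7, 15 and 4 UMIs in neuron-like nuclei, and its intervals reached more than 1 log2 unit to either side of 0 in both comparisons. Dlx5, which acts downstream of Dlx1 and Dlx2, had 11, 18 and 13 UMIs there, or 35.7, 29.8 and 39.7 CPM. Its ratio in those nuclei was −0.26 (−1.42 to 0.97) for the CBP-ablated library, while over all nuclei, with 14, 25 and 14 UMIs, it was 1.19 (0.19 to 2.25). Leaving out the astrocyte-like nuclei, that ratio was 0.90 (−0.12 to 1.99), and its interval held 0.

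Sp9, a factor of striatal and olfactory bulb neurons, had 23, 49 and 24 UMIs in neuron-like nuclei, and its level was nearly the same in the 3 libraries at 74.6, 81.2 and 73.2 CPM. The log2 ratios there were 0.12 (−0.62 to 0.90) and −0.03 (−0.91 to 0.86). Over all nuclei the CBP-ablated library was higher, at 57 against 43 control UMIs and a ratio of 0.76 (0.17 to 1.37), and the p300-ablated ratio was −0.59 (−1.29 to 0.10). With the astrocyte-like nuclei left out these became 0.58 (−0.04 to 1.22) and −0.77 (−1.49 to −0.06), so the first interval held 0 and the second left it out. Sp8, its close relative, was barely detected. It had 34 UMIs in all, 9 of them in neuron-like nuclei and 12 in the astrocyte-like cluster, and its level over all nuclei was lower in the p300-ablated library (7 against 19 UMIs, ratio −1.65, −3.14 to −0.34). Without the astrocyte-like nuclei that ratio was −0.61 (−2.35 to 1.13), so the interval then held 0.

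**Figure D2:**
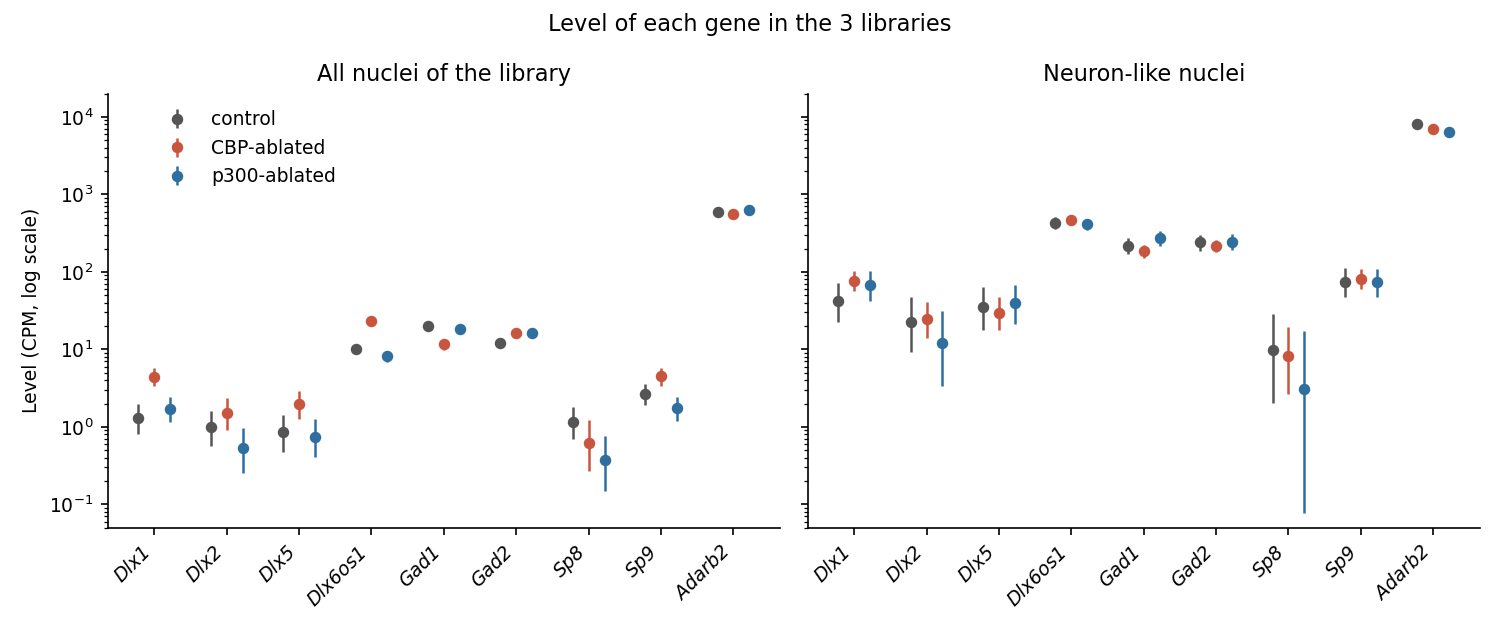
Level (CPM, log scale) of each gene in the control, CBP-ablated and p300-ablated library, over all nuclei and in neuron-like nuclei. Bars are exact Poisson 95% intervals; in neuron-like nuclei the intervals of the 3 libraries overlap for the 8 genes other than Adarb2, which stood at 8112, 7043 and 6395 CPM.

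The GAD genes, which carry out GABA synthesis, were each found in a smaller share of neuron-like nuclei than Dlx6os1 in all 3 libraries. Gad1 had 67, 111 and 89 UMIs there, or levels of 217, 184 and 272 CPM, and a UMI in 47.5%, 39.8% and 52.9% of the nuclei. The CBP-ablated library was lowest and the p300-ablated library highest, with log2 ratios of −0.24 (−0.69 to 0.22) and 0.32 (−0.15 to 0.80) that both held 0. Gad2 had 74, 131 and 80 UMIs, or 240.0, 217 and 244 CPM, with ratios of −0.15 (−0.57 to 0.29) and 0.02 (−0.45 to 0.50). It was found in 41.6%, 38.0% and 46.0% of the nuclei, the same order of libraries as for Gad1.

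Outside the neuron-like class Gad1 differed between libraries. Its UMIs numbered 260 for control, 37 for CBP-ablated and 254 for p300-ablated cultures, or 16.2, 3.05 and 13.7 CPM, and the ratio of the CBP-ablated library was −2.41 (−2.95 to −1.91). The p300-ablated ratio was −0.25 (−0.50 to 0.01). The low CBP-ablated level was also found without the astrocyte-like nuclei (−2.27) and inside single classes: NPC/OPC-like nuclei had 93 control and 16 CBP-ablated UMIs (−1.0, −1.87 to −0.23), glial-progenitor-like nuclei 18 and 2 (−3.21, −6.36 to −1.15), and an unnamed cluster 23 and 3 (−3.88, −6.26 to −2.16). That unnamed cluster was low in the p300-ablated library too, with 1 UMI (−2.95, −8.32 to −0.33). Of classes below the minimum, another unnamed cluster stood at 9.23 (control) and 11.2 CPM (CBP-ablated) and RGC/PSC-like nuclei at 0.615 and 0.638. Cluster-5-like nuclei stood at 18.9 and 14.1 CPM, proliferating-like at 14.7 and 6.46 and oligodendrocyte-like at 8.29 and 2.03. Committed-precursor-like nuclei stood at 2.41 and 0.353 CPM and a further unnamed cluster at 8.07 and 5.39. Each of these levels rested on 1 to 17 UMIs. In the CBP-ablated library 37 of 148 Gad1 UMIs thus lay outside neuron-like nuclei, against 260 of 327 in control. Over all nuclei the 327, 148 and 343 UMIs gave ratios of −0.79 (−1.08 to −0.50) and −0.14 (−0.36 to 0.08).

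Gad2 did not show the same values. It had 125, 77 and 223 UMIs outside neuron-like nuclei, or 7.81, 6.34 and 12 CPM, with ratios of −0.30 (−0.73 to 0.12) for the CBP-ablated and 0.62 (0.30 to 0.95) for the p300-ablated library. Over all nuclei the ratios were 0.42 (0.13 to 0.71) and 0.40 (0.13 to 0.66), and without the astrocyte-like nuclei they were 0.25 and 0.23 with intervals that held 0. Gad1 and Gad2 thus stood apart in direction over all CBP-ablated nuclei, where the share of neuron-like nuclei was larger than in control. Inside and outside neuron-like nuclei taken apart, the Gad2 ratios (−0.15 and −0.30) had the same sign as those of Gad1 (−0.24 and −2.41). Both of these Gad2 intervals held 0.

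**Figure D3:**
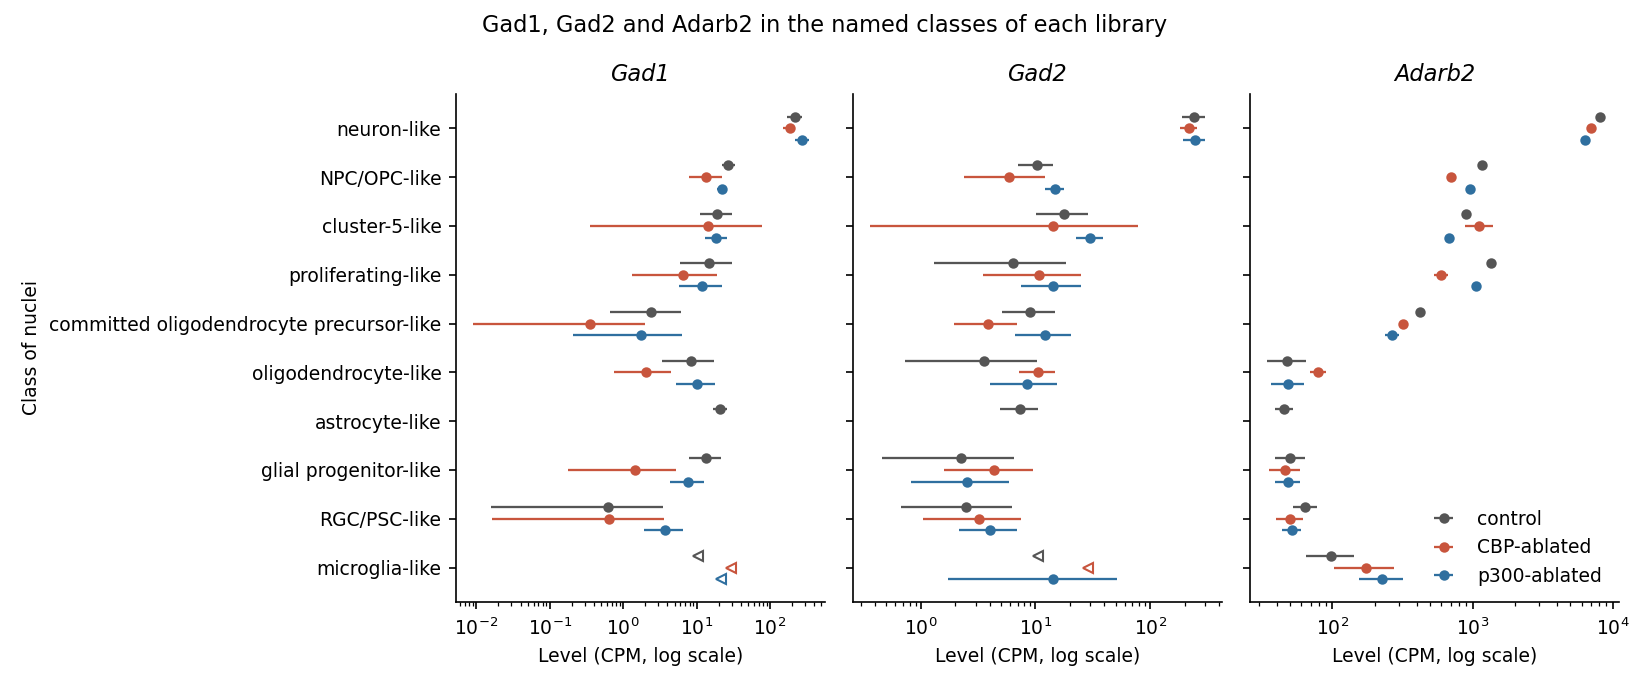
Level (CPM, log scale) of Gad1, Gad2 and Adarb2 in the named classes of nuclei by library. Bars are exact Poisson 95% intervals and open triangles mark the upper limit that a count of 0 allows. Gad1 in NPC/OPC-like nuclei stands at 27.1 CPM for control, 13.6 for CBP-ablated and 22.2 for p300-ablated cultures.

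Adarb2 was the most abundant gene of the set. In neuron-like nuclei it had 2501, 4252 and 2096 UMIs, or 8112, 7043 and 6395 CPM, and a UMI in 95.1%, 95.9% and 100% of the nuclei. Control was highest and both ablated libraries were lower, at log2 ratios of −0.20 (−0.28 to −0.13) and −0.34 (−0.43 to −0.26). Unlike the DLX genes it had RNA in many classes, with 1168, 704 and 958 CPM in NPC/OPC-like nuclei and 1364, 599 and 1066 CPM in proliferating-like nuclei. Outside neuron-like nuclei the CBP-ablated ratio was −0.91 (−0.97 to −0.84) and the p300-ablated ratio 0.22 (0.18 to 0.27), the latter −0.15 without the astrocyte-like nuclei, where the control level was 45.4 CPM. The CBP-ablated ratio was below 0 in 9 of 12 classes, over a range of −1.19 to 0.82, and the p300-ablated ratio in 9 of 12, from −0.75 to 1.21. Over all nuclei these values left levels of 599, 565 and 633 CPM and small ratios of −0.09 (−0.13 to −0.04) and 0.08 (0.04 to 0.12). Without the astrocyte-like nuclei these were −0.46 and −0.29, so the direction in the p300-ablated library turned, and by UMIs per nucleus the CBP-ablated ratio turned to 0.25 (0.21 to 0.30).

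Read against all genes, the set did not stand out inside neuron-like nuclei. There no gene of the 9 passed a log2 ratio of 1 in size in the CBP-ablated library, where 9.18% of 5831 genes did (5.83% higher and 3.34% lower), and Sp8 alone, with 1 UMI, in the p300-ablated library, where 8.66% of 4594 genes did (3.66% higher and 5.01% lower). The median ratio of the 9 was −0.15 and −0.03, against 0.06 and −0.02 over all genes. Over all nuclei Dlx1, Dlx5 and Dlx6os1 were past 1 and higher in the CBP-ablated library, beside 2.89% of 11883 genes higher, 3.99% lower and 6.88% in either direction. Among the 5 genes of the set with at least 100 UMIs, the minimum used for all genes, Dlx6os1 was past that limit. Sp8 was past 1 and lower in the p300-ablated library, beside 2.12% of 12247 genes lower, 0.694% higher and 2.82% in either direction, and none of the 4 with at least 100 UMIs was. When nuclei were placed in the class by a marker score in place of clusters, which took in 571 nuclei and 347 of the 359, the CBP-ablated ratios were 0.95 for Dlx6os1, 0.58 for Gad2, 0.42 for Gad1 and 0.44 for Adarb2, with intervals of 0.64 to 1.27, 0.17 to 1.0, −0.02 to 0.86 and 0.37 to 0.51. The size for Dlx6os1 and the direction of the other 3 thus depend on how the class was drawn. The score widened the class more in control than in the CBP-ablated library, and the part of the added nuclei in these ratios was not tested. The medians over all nuclei were 0.60 and −0.21, against 0.06 and −0.03 over all genes, and they include genes of few UMIs. For the 5 and 4 genes of the set with at least 100 UMIs they were 0.42 and −0.03.

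**Figure D4:**
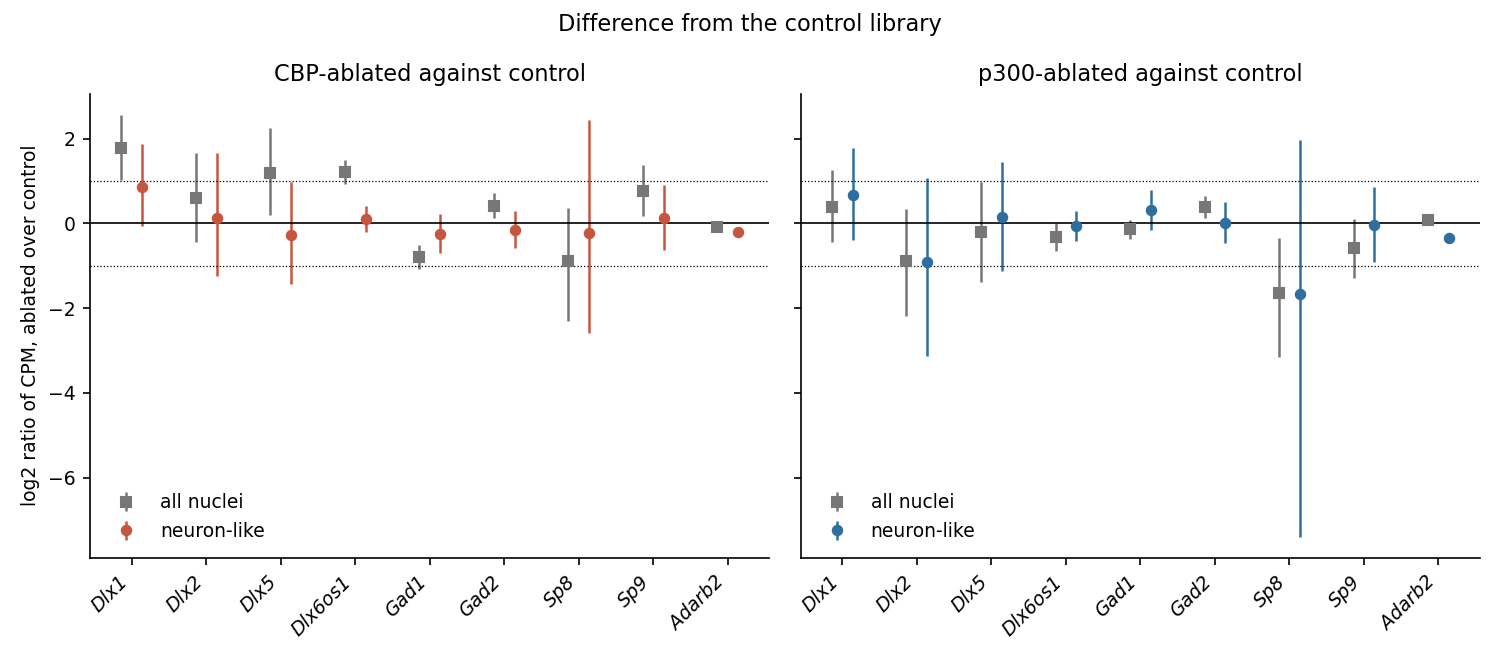
Log2 ratio to control of each gene in the CBP-ablated and p300-ablated libraries, over all nuclei and in neuron-like nuclei, with conditional binomial 95% intervals and dotted lines at a ratio of 1 in size. In the CBP-ablated library Dlx6os1 stands at 1.22 over all nuclei and at 0.11 in neuron-like nuclei.

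Levels were also divided by the gene's span in kb, which need not set genes of different length on 1 scale. The UMIs came from 3' libraries, and whether they grow in proportion to span was not tested. In neuron-like nuclei of the 3 libraries together, levels per kb ran from Adarb2 (12.6 CPM per kb) and Dlx1 (11.1) through Dlx6os1 (8.55), Dlx5 (7.91), Dlx2 (6.27), Sp9 (6.06), Gad1 (4.4) and Gad2 (3.21) to Sp8 (1.16). The counting intervals of neighbours in this order overlapped down to Gad1. The intervals of Gad1 and Gad2, and of Gad2 and Sp8, did not meet with the libraries together, but Gad1 met its lower neighbour in each library alone, and after p300 ablation that neighbour was Dlx2. Adarb2 was above Dlx1 in control (14.3, 13.8 to 14.9, against 7.18, 3.82 to 12.3), while the intervals of these genes overlapped in the CBP-ablated (12.4 and 13.0) and p300-ablated (11.3 and 11.4) libraries.

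Most neuron-like nuclei held RNA of the set beyond Adarb2. At least 1 of the other 8 genes had a UMI in 88 of the 101 nuclei of the control library (87.1%), in 145 of 171 after CBP ablation (84.8%) and in 79 of 87 after p300 ablation (90.8%). At least 2 were found in 228 of the 359 nuclei (63.5%), at least 3 in 129 (35.9%) and at least 4 in 44 (12.3%). Outside the class 8.10% of 12190 nuclei had any of the 8, and 44 nuclei had 2 or more. Thinned to 1500 UMIs, the share with any of the 8 was 76.9%, 70.4% and 73.5%, so the order of the libraries changed with depth. A UMI of a DLX or SP gene was found in 271 nuclei (75.5%), of Gad1 or Gad2 in 226 (63.0%) and of both kinds in 185 (51.5%).

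DLX and SP RNA was looked for in the nuclei with a GAD UMI. In the neuron-like class 185 of 226 such nuclei (81.9%, 76.2 to 86.7) also had a UMI of a DLX or SP gene, beside 75.5% of all nuclei of the class, with 79.7%, 85.6% and 78.3% in the 3 libraries. Outside it, 14 of 828 did (1.69%, 0.927 to 2.82), among them 3 of 355 NPC/OPC-like and 1 of 100 astrocyte-like nuclei. The share among all outside nuclei was 1.42% (173 of 12190, 1.22 to 1.64). Outside the class, nuclei with a GAD UMI thus had a DLX or SP UMI about as often as nuclei in general. Inside it their interval of 76.2 to 86.7 overlapped that of the class share of 75.5% (70.7 to 79.85). That share includes the nuclei with a GAD UMI themselves. The overlap therefore cannot show whether nuclei with and without a GAD UMI differ. By library, the control interval of 68.3 to 88.4 held its class share of 73.3%, and the p300-ablated one of 65.8 to 87.9 held 75.9%. The CBP-ablated interval of 77.0 to 91.9 lay just above 76.6%. These class shares hold the same nuclei too. Nuclei of the class with and without a DLX or SP UMI are separate groups. Gad1 had a UMI in 48.71% of the 271 with one and in 34.09% of the 88 without. For Gad2 the shares were 45.02% and 28.41%. The Gad1 intervals overlapped, and those of Gad2 barely did. In the p300-ablated library Gad1 stood at 53.03% and 52.38%. These differences were not tested. Doublets were called for 5.50% of the outside nuclei with a Gad1 UMI and 5.72% of those with Gad2, against 3.40% of all outside nuclei, and their part in these values was not tested.

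**Figure D5:**
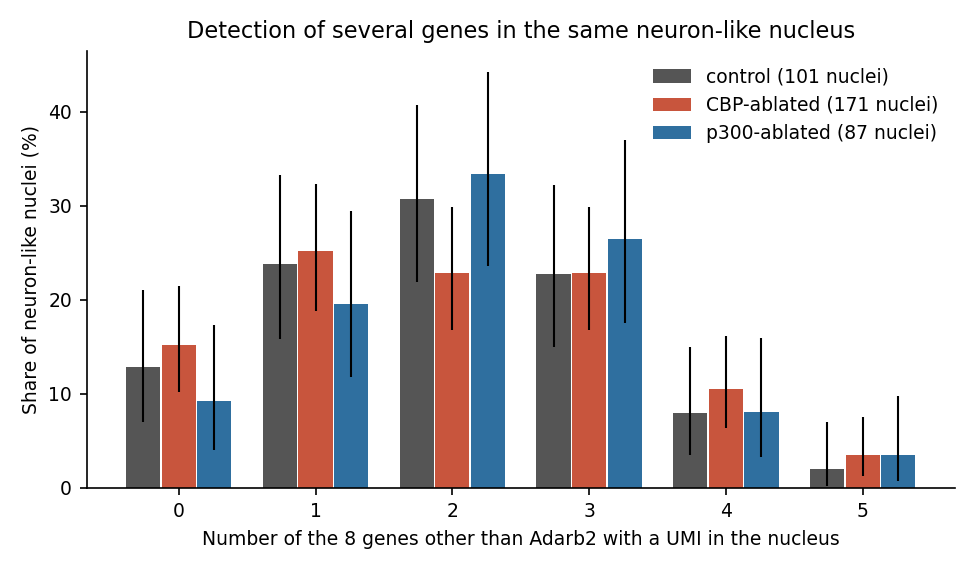
Percent of neuron-like nuclei in each library by how many of the 8 genes other than Adarb2 had a UMI, with Clopper-Pearson 95% intervals. At least 1 was found in 87.1% (control), 84.8% (CBP-ablated) and 90.8% (p300-ablated) of nuclei.

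Inside the class the pairs varied, and a nucleus of more UMIs can show more genes at once, so the following shares are descriptions. Gad2 had a UMI in 98 of 202 nuclei with Dlx6os1 (48.5%) and in 49 of 157 without it (31.2%). It was found in 83 of 162 nuclei with Gad1 (51.2%) and in 64 of 197 without (32.5%). Sp9 was found in 15 of 39 nuclei with Dlx5 (38.5%) and in 62 of 320 without (19.4%), whereas Gad1 was found in 28 of 65 nuclei with Dlx1 (43.1%) and in 134 of 294 without (45.6%). Adarb2 had a mean of 27.0 UMIs in nuclei with a DLX or SP UMI and 17.4 in those without, at median depths of 3318 and 3282 UMIs.

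Related genes of the same pathway were read from fixed lists. Of 5 genes of GABA synthesis, loading, uptake and breakdown, Slc32a1, the vesicular GABA transporter, had 20 UMIs in all and every one in neuron-like nuclei. Slc6a11, the astrocytic transporter GAT-3, had 2401, 119 and 219 UMIs in all, but 16, 4 and 4 in neuron-like nuclei. Abat, which breaks GABA down, stood at 143, 167 and 223 CPM there.

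Of 29 transcription factors of the ventral forebrain and olfactory bulb, 24 and 23 had at least 20 UMIs in the comparisons over all nuclei. In the CBP-ablated library 4 were past 1 and higher (Dlx6, Nkx6-2, Npas1 and Pbx3). In the p300-ablated library 2 were higher (Npas1 and Ebf1). Of all genes with at least 100 UMIs, a stricter minimum than that of the list, 2.89% and 0.694% were higher. Dlx6 rested on 9 control and 17 CBP-ablated UMIs, with a ratio of 1.27 (0.03 to 2.62). In neuron-like nuclei the CBP-ablated library had 2 higher (Dlx1as and Pax6) and 1 lower (Foxp2) of 15. The p300-ablated library had 1 lower (Ebf1) of 11, and the list medians were 0.03 and −0.16. Of all genes at the same minimum of 20 UMIs, 5.83% were higher and 3.34% lower in CBP-ablated neuron-like nuclei. In p300-ablated ones 3.66% were higher and 5.01% lower. The interval of Dlx1as held 0 (1.03, −0.60 to 3.07). Among the abundant ones in neuron-like nuclei, Meis2 stood at 4408, 4348 and 3619 CPM, Pbx3 at 3727, 4782 and 4177 CPM, and Zeb2 at 1194, 1421 and 1358 CPM. The class held 15.7%, 57.5% and 2.61% of the UMIs of these genes, beside 2.59% of all UMIs. Dlx6 had 25 of its 30 UMIs in neuron-like nuclei, whereas Dlx1as had 29 of 202. Lhx6 and Isl1, factors of other ventral lineages, had no UMI in any library.

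Of the 18 interneuron subtype genes, 8 had no UMI in neuron-like nuclei, Sst and Pvalb had 1 each and Vip had none in any library. Erbb4, a neuregulin receptor of interneurons, stood at 9172, 7857 and 6993 CPM, and Synpr, a synaptic vesicle protein, at 1135, 904 and 1315 CPM. Most of their UMIs lay elsewhere, with 5.97% of those of Erbb4 and 15.8% of those of Synpr in neuron-like nuclei. Reln, a secreted glycoprotein, was past 1 and lower there in both ablated libraries at 77.8, 34.8 and 15.3 CPM (ratios −1.16, −2.08 to −0.26, and −2.35, −4.1 to −0.93). It rested on 24, 21 and 5 UMIs, and the class held 2.40% of its UMIs, beside 2.59% of all UMIs. Calb2, the calretinin of olfactory bulb interneurons, was past 1 and higher in the p300-ablated library at 32.4, 28.2 and 67.1 CPM, with an interval that held 0 (1.05, −0.09 to 2.29). In each comparison 4 genes of the list had at least 20 UMIs in neuron-like nuclei. Of all genes at that minimum, 3.34% were lower in the CBP-ablated library. In the p300-ablated library 5.01% were lower and 3.66% higher. Among 12 glutamatergic genes 9 had no UMI in neuron-like nuclei, Slc17a8 and Fezf2 had 1 each, and Slc17a6, a vesicular glutamate transporter, had none. Of 16 pan-neuronal genes 14 had a UMI there, led by Celf4, Map2 (1576, 1618 and 1370 CPM), Myt1l (837, 974 and 1001 CPM) and Dcx (431, 341 and 351 CPM), with list medians of 0.15 and −0.15 in neuron-like nuclei. Snhg11, a noncoding RNA of neurons, was past 1 and higher there in both ablated libraries (15, 151 and 83 UMIs, ratios 2.36, 1.59 to 3.23, and 2.38, 1.58 to 3.28), and Gap43, a growth cone protein, was past 1 and lower in the CBP-ablated library with an interval that held 0 (−1.06, −2.14 to 0.02).

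The genes whose level followed that of the set most closely were found by Pearson's r of log2(CPM + 1) over 35 units, each a class in a library with at least 40 nuclei. The units share libraries and depth and 3 of them are neuron-like, so r is a description and has no p. For Dlx6os1 the nearest genes were Htr1f (0.896), Cacng2 (0.896) and Grm8 (0.895), for Dlx1 4930555F03Rik (0.905), Cntnap2 (0.898) and Kcnmb2 (0.898), and for Sp9 Adamts19 (0.894), Kcnmb2 (0.882) and Cntnap2 (0.872). For Gad1 they were Gpr158 (0.877), Cacna1e (0.856) and Myt1l (0.842), and for Gad2 Galntl6 (0.851), Kcnh7 (0.837) and Unc13a (0.837). Adarb2 had Dpp10 (0.958), Lrfn5 (0.940) and Bsn (0.940). Dlx6os1 itself led the neuron-like cluster by fold over all other nuclei, ahead of Cacng2, Slc35f4, Hs3st4 and Gm45323. The 9 genes had been kept out of the clustering, but of these Dlx6os1 and Adarb2 alone were among the variable genes. With them kept in, the cluster held the same 359 nuclei. The 9 genes were also chosen with earlier results of these data known, so this rank is a description.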

How the data were processed

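Single-nucleus RNA was measured in 3 libraries of mouse neurosphere cultures. The authors aligned reads to GRCm38, counted UMIs over exons and introns and deposited the raw counts of each gene in each nucleus; the submitters' processing notes name Cell Ranger 3.1, FastQC 0.11.9 and Seurat 2.3.4. All nuclei were kept (the deposited counts start at 500 to 502 UMIs per nucleus), and libraries were assigned by genotype label. The 9 genes, the lists and the alternatives were chosen with earlier results of these data known.

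Clusters of nuclei were made in R 4.3.3 by the Seurat 5.3.0 and Matrix 1.6.5 packages (1615 variable genes without the 9 members, 20 components, 30 neighbours, resolution 0.6, seed 1) and named from fixed markers, of which at least 3 and 60% had to have a UMI in 10% of nuclei and 2 times the level elsewhere after adding 1 CPM. The level of a gene is the sum of its counts over nuclei per 1000000 UMIs of those nuclei (CPM). Intervals (95%) are exact Poisson for levels, conditional binomial for log2 ratios and Clopper-Pearson for shares, which came from scipy 1.17.1 under Python 3.11.15 (pandas 2.3.3, numpy 2.4.6, and matplotlib 3.10.9 for figures). With 1 library per condition no test was made, and intervals leave out the variation between cultures. Those of levels and ratios also leave out the variation between nuclei. A count of 0 was given an upper limit of 3 UMIs, which is 0.184, 0.235 and 0.159 CPM in the control, CBP-ablated and p300-ablated libraries. Percentages of all genes past a log2 ratio of 1 were taken over genes whose UMIs in the libraries compared came to 100 or more, or to 20 or more in neuron-like nuclei. The log2 ratios and their intervals were tried on simulated Poisson counts of genes with at least 100 control UMIs. These counts follow the counting model of the intervals and hold no variation between nuclei or cultures. The trial therefore cannot check the intervals for such variation or for sparser genes.

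Named genes were the 9 members, the 4 genes of most UMIs in neuron-like nuclei of each related list, the 3 genes of highest correlation with each member of at least 100 UMIs and the 5 lead genes of the neuron-like cluster; other list genes were named after their values were seen. Not every list gene named by this rule is reported here, and counts over all nuclei of lower list genes are left out for that reason. Alternatives were the 9 genes kept in clustering, resolutions of 0.3 and 1.2, a second seed, each library clustered by itself, no doublets (Scrublet in scanpy 1.11.5, 0.8% for each 1000 nuclei, which called 191, 73 and 173 nuclei), nuclei with at least 1500 UMIs, classes by marker score, centred ratios, UMIs per nucleus, no astrocyte-like cluster, a minimum of 20 UMIs per gene and library, and thinning. Ratios outside neuron-like nuclei, their alternatives, shares without the astrocyte-like cluster and shares pooled over 8 genes were added after the data were seen.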

Additional observations from a re-analysis of the deposited data

Results flagged for a closer look

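Adarb2 differed in opposite directions between classes of nuclei, with each of the following intervals away from 0. With 1 library for each condition the difference between classes was not tested. In the CBP-ablated library its log2 ratio to control was 0.74 (0.25 to 1.26; 40 control and 234 CBP-ablated UMIs) in oligodendrocyte-like nuclei and −1.19 (−1.40 to −0.98; 648 and 278 UMIs) in proliferating-like nuclei. In the p300-ablated library it was 1.21 (0.43 to 1.99; 28 and 32 UMIs, 98.3 and 227 CPM) in microglia-like nuclei and −0.75 (−1.11 to −0.40; 399 and 80 UMIs) in an unnamed cluster. Microglia-like nuclei served above as the reading of free RNA. The oligodendrocyte-like levels (47.4 and 79.2 CPM) lay below theirs in the same libraries (98.3 and 174 CPM). Median depth differed, at 5258 and 5939 UMIs in oligodendrocyte-like and 1134 and 1010 in microglia-like nuclei of these libraries. The higher values in both classes are not read here as expression, and the part of free RNA in them was not tested.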

How the results depend on the processing

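No paired analysis was possible because each condition had 1 library. Of 716 values recomputed under alternatives, 637 lay within the interval of the reported value or, for counts, within 1.5 times it. Some of these could not move, since the minimum of 20 UMIs leaves out genes and keeps each remaining ratio as it was. Such unchanged ratios are counted here and in the tallies of ratios that follow. Centring shifted ratios by 0.06 or less in size. Of 298 recomputed ratios 17 had the opposite sign, 4 of them among the 94 whose reported interval excluded 0 (all Adarb2) and 13 among the 204 whose interval held 0; of the 94, 85 still excluded 0 on the same side. Without the astrocyte-like nuclei, the CBP-ablated ratios over all nuclei were 0.84 for Dlx6os1 and −0.46 for Adarb2 with 1 gene past a log2 ratio of 1, the p300-ablated ratios were −0.70 for Dlx6os1 and −0.29 for Adarb2, the ratios of Adarb2 outside neuron-like nuclei were −1.28 and −0.15, and the control share of neuron-like nuclei was 2.80%. In the same setting the intervals of Dlx5 (0.90), Sp9 (0.58) and Gad2 (0.25) in the CBP-ablated and of Gad2 (0.23) and Sp8 (−0.61) in the p300-ablated library held 0. By UMIs per nucleus, the CBP-ablated ratios were 1.56 for Dlx6os1, −0.45 for Gad1, 0.76 for Gad2 and 0.25 for Adarb2, and the p300-ablated ratios 0.14 for Gad1, 0.68 for Gad2 and 0.36 for Adarb2. Centred on all genes, Adarb2 stood at −0.14 in the CBP-ablated library. By marker score, the CBP-ablated ratios in neuron-like nuclei were 0.95 for Dlx6os1, 0.42 for Gad1, 0.58 for Gad2 and 0.44 for Adarb2, with 1 gene past 1 and 2 in the p300-ablated library, neuron-like shares were 4.10%, 6.73% and 3.61%, and any of the 8 genes was found in 49.0%, 70.9% and 50.6% of nuclei. By clusters the neuron-like shares were 2.07%, 5.67% and 1.87%, so the score widened the class more in control than in the CBP-ablated library. Without called doublets Adarb2 was −0.32 in CBP-ablated neuron-like nuclei and 2 genes were past 1 in p300-ablated ones, and with at least 20 UMIs in each library 0 were, over all nuclei or in that class. Thinned, any of the 8 was found in 76.9%, 70.4% and 73.5%. The cause of these moves was not tested. Clustering alternatives shared 356 to 359 of the 359 neuron-like nuclei. Depth limits Sp8, Dlx2 and Dlx5, with 9 to 42 UMIs in neuron-like nuclei.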
